A study of Homo sapiens with 6 samples.

Results

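The genes described here encode the SOX, PAX, GATA, RUNX and T-box transcription factors, chosen by symbol: every SOX, PAX or TBX gene with a number, GATA1 to GATA6, RUNX1 to RUNX3, TBXT, TBR1 and EOMES. The deposited table held 43 of them among 17170 genes: 14 SOX, 8 PAX, 5 GATA, 3 RUNX and 13 T-box genes. Genes of these families outside the 43, such as GATA5, PAX4 and TBXT, have no value here and are not counted as undetected. The series used NCI-H69, a small cell lung cancer line that is regarded as neuroendocrine. Of 6 samples, 3 carried a stable CRISPR/Cas9 knockout of SCRMP, aimed at the coding sequence in MIR7-3HG, and 3 were negative controls with a non-targeting guide RNA. All were grown in serum-containing RPMI-1640 medium and share a batch label, and the labels do not say whether either line was a clone. No column of the table carried a name given for a knockout sample, so every value below is a level in the 3 control libraries, and no groups were compared.

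These families set cell identity in the embryo and are often reused in tumours. SOX proteins bend DNA through an HMG box and usually act with a partner factor, PAX proteins bind through a paired domain, and GATA proteins through zinc fingers that read a GATA sequence. RUNX proteins bind DNA as a pair with CBFB, and T-box proteins read a short brachyury-type element. Within each family, subgroups of close relatives mark particular tissues, such as SOX2 in stem and neural progenitor cells, GATA6 in endoderm and PAX3 in neural crest and muscle precursors.

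The 3 control libraries held 20941185, 22309228 and 22477571 estimated reads. Levels are in TPM, a share of all transcripts that is corrected for gene length and may be compared between genes. The word detected is used for genes that had at least 1 TPM in each library, as 66.5% of all genes did. Errors are SDs over the 3 libraries (n = 3), which the labels call biological replicates without saying how separate the cultures were. Of 8 markers of the neuroendocrine type, as which the line is regarded, 2 were detected (25%). They were the glycolytic enzyme ENO2 (37.0 TPM ± 3.02) and the adhesion molecule NCAM1 (25.7 TPM ± 3.66). The zinc finger factor INSM1 (0.650 TPM ± 0.0458), the Notch ligand DLL3 (0.240 TPM ± 0.0265) and the granule protein CHGA (0.080 TPM ± 0.020) were below 1 TPM, so these values went against that type. In bulk RNA, fewer cells of a type and less RNA per cell cannot be told apart. Of 8 mesenchymal markers, 7 were detected (87.5%), with a summed level of 5876 to 5913 TPM across libraries and VIM at 4542 TPM ± 87.8. Of 6 epithelial markers, 1 was detected (KRT8, 3.04 TPM ± 0.257), of 5 leukocyte markers 1 (CORO1A, 7.49 TPM ± 1.03) and of 3 endothelial markers 0, with PECAM1 at 0.0267 TPM ± 0.0252. Their part in the levels below was not tested.

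Of the 43 factor genes, 21 were detected (48.8%), against 66.5% of all genes in the table. A mean of 10 TPM or more was reached by 6 of the 43 (14.0%) and by 44.1% of all genes. The families differed in how many members were on: all 3 RUNX genes, 6 of 8 PAX genes (75%), 3 of 5 GATA genes (60%), 5 of 14 SOX genes (35.7%) and 4 of 13 T-box genes (30.8%). On the log2(TPM + 1) scale the median factor stood at 1.12 and the median of all genes at 2.97. These are shares and medians over genes, which are not replicates.

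**Figure D1:**
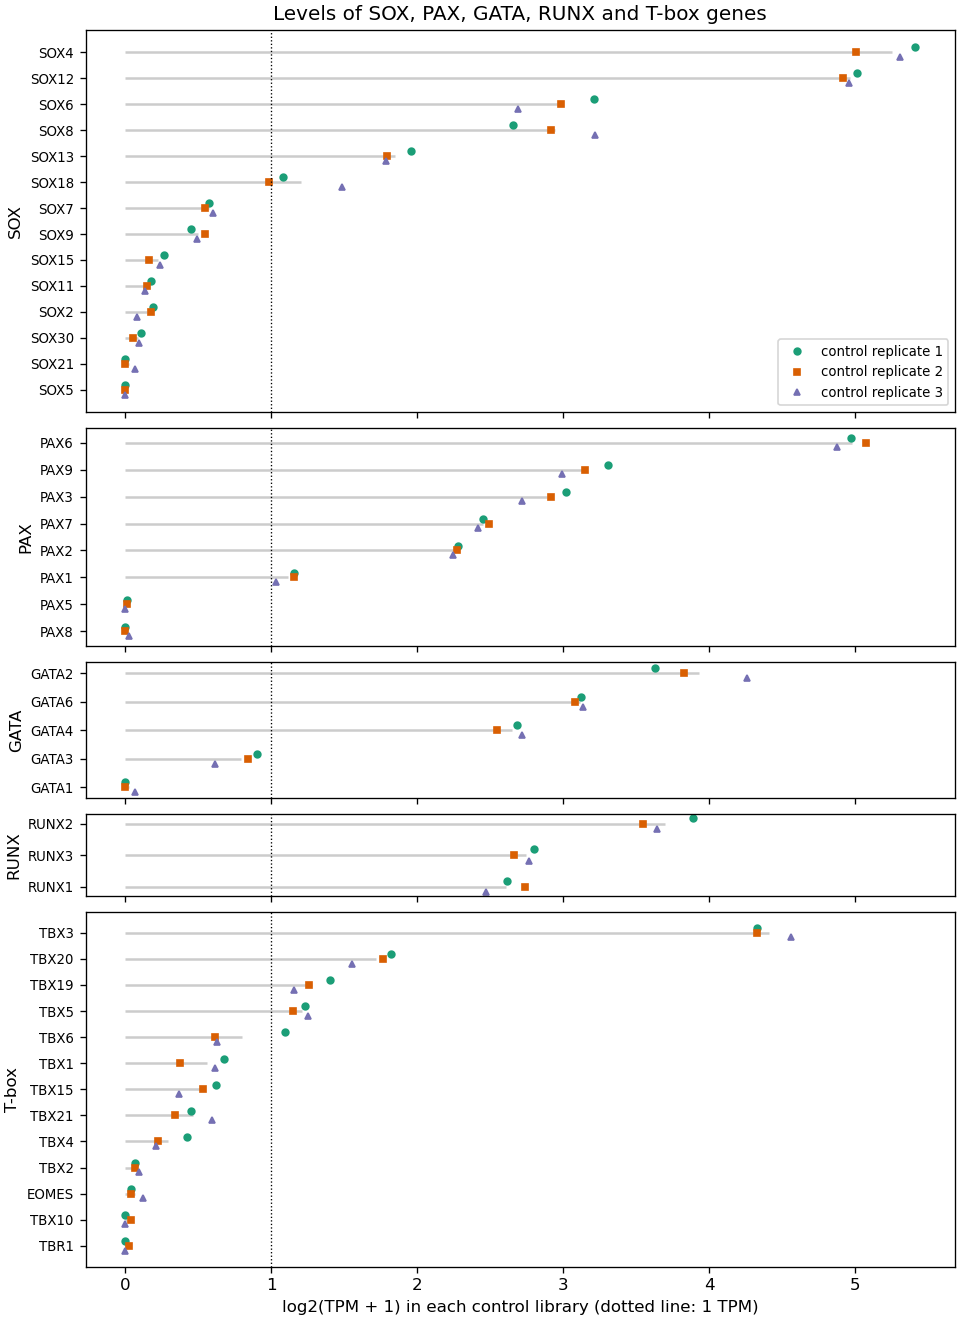
Level of each measured SOX, PAX, GATA, RUNX and T-box gene as log2(TPM + 1) in each of the 3 control libraries (points), with the grey line ending at the log2 of the mean TPM + 1. SOX4, SOX12, PAX6 and TBX3 stand above 19 TPM in every library, and 22 of the 43 genes fall below 1 TPM, the dotted line, in at least 1 library.

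The RUNX genes were the only family of the 5 with every measured member detected at 1 TPM, and 2 of the 3 passed a minimum of 5 TPM. RUNX2, the master factor of bone formation, had 13.82, 10.67 and 11.51 TPM in control replicates 1, 2 and 3 (12.0 TPM ± 1.63). RUNX3, a regulator of sensory neurons and T cells, had 5.98, 5.35 and 5.79 TPM. RUNX1, required for the origin of blood stem cells, had 5.13, 5.67 and 4.54 TPM. RUNX2 was above both others in each library, and the ranges of RUNX3 and RUNX1 overlapped. RUNX2 held 52.6% of the family's summed level of 22.8 TPM ± 1.83. Its annotated span (chromosome 6, 45328330 to 45551082) overlaps SUPT3H by 49605 bases, and SUPT3H had 23.5 TPM. The libraries keep the strand, but no source used here says whether counting used it.

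RUNX genes are known to be transcribed from a distal and a proximal promoter, and the table has 1 value per gene for both. The RefSeq promoter windows (GRCh38.p14, 250 bases before to 50 after a transcript start) are shown because all 3 genes were expressed and RUNX proteins can bind their own promoters. Sequences are 5′ to 3′ on the gene's strand, and capitals mark the RUNX core motif TGTGGT or its reverse complement ACCACA. For RUNX2 and RUNX3 window 1 is the distal start and window 2 the proximal. The RUNX1 window lies inside the gene's span (chromosome 21, 34787801 to 35049302), and its distal start was not examined.
RUNX1 window 1 (chr21:34888650-34888949, minus strand): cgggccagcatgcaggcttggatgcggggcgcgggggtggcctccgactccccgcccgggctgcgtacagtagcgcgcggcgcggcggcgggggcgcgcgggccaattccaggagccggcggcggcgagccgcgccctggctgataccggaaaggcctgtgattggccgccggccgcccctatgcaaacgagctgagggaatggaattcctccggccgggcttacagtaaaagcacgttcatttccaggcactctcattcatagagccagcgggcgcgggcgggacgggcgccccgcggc
RUNX2 window 1 (chr6:45328080-45328379, plus strand): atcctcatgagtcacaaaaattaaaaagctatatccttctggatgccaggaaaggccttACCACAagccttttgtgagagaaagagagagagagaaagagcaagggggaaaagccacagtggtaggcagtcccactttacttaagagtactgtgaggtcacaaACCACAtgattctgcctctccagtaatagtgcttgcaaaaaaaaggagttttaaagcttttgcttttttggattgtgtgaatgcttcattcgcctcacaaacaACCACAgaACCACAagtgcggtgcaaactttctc
RUNX2 window 2 (chr6:45422025-45422324, plus strand): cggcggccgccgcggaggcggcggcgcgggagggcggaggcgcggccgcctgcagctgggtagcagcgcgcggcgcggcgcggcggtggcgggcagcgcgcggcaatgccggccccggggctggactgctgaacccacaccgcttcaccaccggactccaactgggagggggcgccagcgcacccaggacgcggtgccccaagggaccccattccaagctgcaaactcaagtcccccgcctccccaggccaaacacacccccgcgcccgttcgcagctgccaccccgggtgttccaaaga
RUNX3 window 1 (chr1:24964961-24965260, minus strand): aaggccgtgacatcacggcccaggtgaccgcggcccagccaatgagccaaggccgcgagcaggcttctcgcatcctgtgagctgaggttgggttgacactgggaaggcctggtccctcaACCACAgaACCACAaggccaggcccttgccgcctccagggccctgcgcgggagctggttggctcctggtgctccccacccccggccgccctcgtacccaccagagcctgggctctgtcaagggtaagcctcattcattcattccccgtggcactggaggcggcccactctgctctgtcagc
RUNX3 window 2 (chr1:24930227-24930526, minus strand): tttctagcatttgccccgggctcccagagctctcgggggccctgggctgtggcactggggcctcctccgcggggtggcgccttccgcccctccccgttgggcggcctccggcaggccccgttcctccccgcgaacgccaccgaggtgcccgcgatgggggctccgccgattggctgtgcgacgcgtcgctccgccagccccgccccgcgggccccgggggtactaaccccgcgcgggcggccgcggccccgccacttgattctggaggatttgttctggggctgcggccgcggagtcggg
The distal window of RUNX2 held 4 matches and that of RUNX3 held 2, whereas both proximal windows and the RUNX1 window held 0. Over 19759 windows of measured genes, 10.8% held at least 1 match on either strand, 0.957% at least 2 and 0.0860% at least 3. The longest run of letters shared by the distal windows of RUNX2 and RUNX3 was 18 bases, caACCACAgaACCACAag, with 2 of the matches. It began at base 265 of the RUNX2 window and base 118 of the RUNX3 window. The windows also differed in base composition: the distal window of RUNX2 had 2 CG dinucleotides and 42.7% G or C, against 39 and 76% in its proximal window. A match of letters is a description and says nothing of which start was in use.

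The RUNX partner CBFB was detected, whereas several bone genes were not. CBFB, the shared DNA-binding partner, had 35.91, 30.54 and 29.12 TPM. In a list of 20 partners and bone or cartilage targets 13 were detected (65%, close to the 66.5% of all genes), and the list median was 13.8 TPM ± 0.298. The 3 highest were the homeobox gene MSX2 (421.3 TPM ± 28.7), the TLE family member TLE5 (257.7 TPM ± 21.6) and the growth factor VEGFA (147.4 TPM ± 4.24). The corepressors TLE1 to TLE4 had means of 4.90 (TLE3) to 27.4 TPM (TLE2). The osteoblast factor SP7 (0.287 TPM ± 0.0462), the phosphatase ALPL (0.403 TPM ± 0.127) and the bone matrix genes IBSP (0.0367 TPM ± 0.0321) and SPP1 (0.020 TPM ± 0.0346) were not detected. COL10A1 and MMP13, genes of hypertrophic cartilage, were listed at 0 in all 3 libraries.

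SOX genes had the highest summed level of the 5 families, 86.3 TPM ± 6.84, and 78.1% of it came from 2 members. SOX4, a SOX C factor of progenitors and of many carcinomas, had 41.64, 31.19 and 38.64 TPM from 2380, 1942 and 2458 reads (chromosome 6, 21593751 to 21598619). SOX12, its close relative, had 31.32, 29.26 and 30.14 TPM (chromosome 20, 325552 to 330224). SOX4 was lowest in control replicate 2, where its value lay within the range of SOX12, although SOX4 was above SOX12 in every library. SOX11, the third SOX C gene and a neuronal factor, had 0.13, 0.11 and 0.10 TPM from 12 to 14 reads per library. SOX C genes as a whole summed to 67.5 TPM ± 6.38.

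The SOX D and SOX E subgroups each had 1 leading member. SOX6, which acts in cartilage, red cells and neurons, had 8.25, 6.91 and 5.46 TPM (chromosome 11, 15966449 to 16738477), and SOX13 had 2.88, 2.46 and 2.45 TPM. SOX5, which works with SOX6 in cartilage, was listed at 0 with 0 reads in every library. A count of 0 allows up to 3 reads, that is 0.133 to 0.143 RPM (reads per 1000000 estimated reads of the library), and this limit covers counting error only. SOX8, a SOX E factor of neural crest and testis, had 5.30, 6.54 and 8.30 TPM (chromosome 16, 981770 to 986979) and held 94.2% of the measured SOX E level. SOX9, the factor of cartilage, airway progenitors and neural crest, had 0.37, 0.46 and 0.41 TPM from 17 to 23 reads. SOX10 is not analysed here.

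No other measured SOX gene was detected. SOX18, a vascular factor, had 1.12, 0.98 and 1.80 TPM (1.30 TPM ± 0.439) and so missed the threshold through 1 library. SOX7, another SOX F gene, had 0.46 to 0.52 TPM. SOX2, the SOX B1 factor that is amplified in part of small cell lung cancers, had 0.14, 0.13 and 0.06 TPM from 4, 4 and 2 reads. SOX15, SOX21 and SOX30 had 0 to 0.20 TPM across all libraries, from at most 3 reads. SOX15 lies against MPDU1 (89.7 TPM), with an overlap of 35 bases.

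Most lists of genes that act beside SOX factors had smaller detected shares than the 66.5% of all genes, and the WNT list did not. Of 14 measured cartilage matrix genes 6 were detected (42.9%), and their list median was 0.415 TPM ± 0.150. Collagen chain COL11A1 (65.0 TPM ± 8.97), collagen chain COL9A3 (57.4 TPM ± 2.29) and the link protein HAPLN1 (34.1 TPM ± 2.87) led it, whereas the SOX9 targets COL2A1 (0.0467 TPM ± 0.0379) and ACAN (at most 1 read per library) were near 0. Of 12 measured Schwann cell and melanocyte genes 4 were detected (33.3%). These included the melanin enzyme DCT (12.2 TPM ± 0.791), the melanocyte factor MITF (11.7 TPM ± 0.878) and the adhesion molecule L1CAM (5.71 TPM ± 0.252). Of 11 pluripotency genes 2 were detected (18.2%), KLF4 (24.3 TPM ± 5.04) and LIN28B (2.13 TPM ± 0.308). POU5F1, the partner of SOX2, had 1.56, 1.53 and 0.54 TPM. Of 10 neural progenitor genes 5 were detected (50%), led by POU3F3 (9.21 TPM ± 0.732), EMX2 (7.92 TPM ± 0.601) and NES (5.12 TPM ± 0.536). Of 10 WNT factors and readouts 8 were detected (80%), led by CTNNB1 (56.5 TPM ± 2.91), LEF1 (40.4 TPM ± 1.04) and AXIN2 (36.6 TPM ± 2.89).

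**Figure D2:**
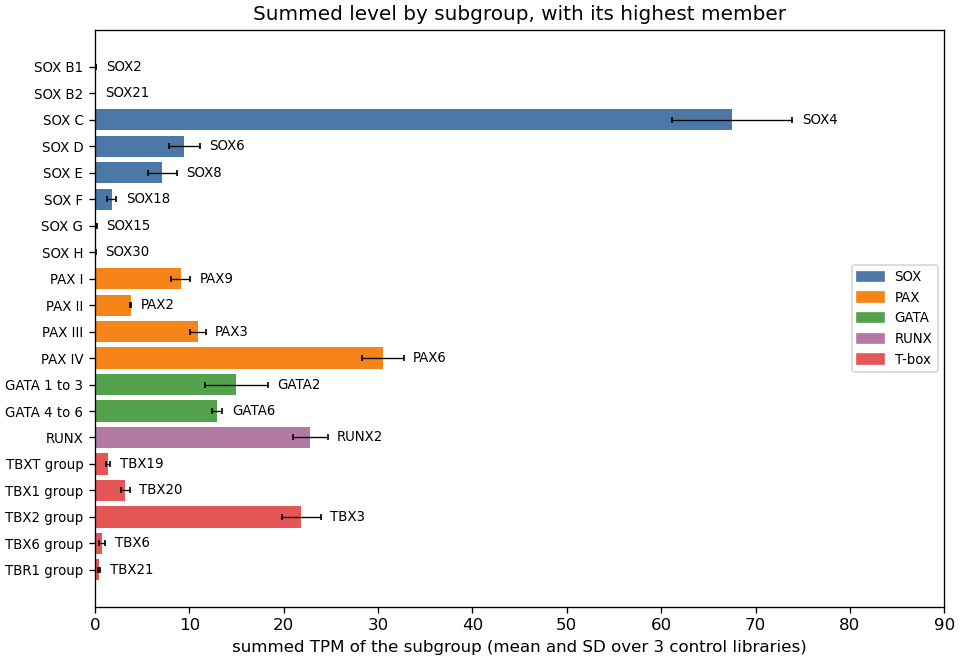
Summed TPM of the measured members of each subgroup (bars, mean over 3 control libraries, whiskers SD), with the name of the highest member. SOX C stands highest at 67.5 TPM, followed by PAX IV, which is PAX6 alone at 30.5 TPM, RUNX at 22.8 TPM and the TBX2 group at 21.9 TPM.

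PAX genes were detected in each of the 4 subgroups. PAX6, the eye and forebrain factor, had 30.38, 32.76 and 28.39 TPM (chromosome 11, 31789026 to 31817961) and 56.2% of the family's summed level of 54.3 TPM ± 3.67. It overlaps ELP4 by 1299 bases, and ELP4 had 10.8 TPM. PAX9, of pharyngeal pouches and sclerotome, had 8.88, 7.88 and 6.97 TPM (chromosome 14, 36657568 to 36679362), and its relative PAX1 had 1.23, 1.23 and 1.05 TPM. PAX9 overlaps SLC25A21 by 1442 bases, and SLC25A21 had 5.13 TPM.

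Both PAX III genes, which act in neural crest and muscle precursors, were detected. PAX3 had 7.11, 6.54 and 5.59 TPM (chromosome 2, 222199887 to 222298998), and PAX7 had 4.46, 4.63 and 4.34 TPM (chromosome 1, 18630846 to 18748866). PAX3 was above PAX7 in every library. PAX2, of kidney and ear, had 3.85, 3.83 and 3.74 TPM (chromosome 10, 100735396 to 100829944), the smallest spread in TPM of the 21 detected factors (1.54% of the mean). In RPM it varied by 3.52%, more than GATA4 (1.32%), PAX3 (2.27%) and some others. Its relatives PAX8, of thyroid and kidney, and PAX5, of B cells, had 0 or 1 read in each library. PAX2 thus held 99.7% of the measured PAX II level.

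EYA and DACH genes and their partners, known as a network with PAX factors, were nearly all on. Of 10 measured genes 9 were detected (90%, against 66.5% of all genes), and the list median was 7.55 TPM ± 0.135. EYA4 had 20.8 TPM ± 2.61 and SIX4 10.3 TPM ± 0.805, and EYA2 had 1 read in 1 library. Of 22 neural crest and border factors 17 were detected (77.3%), and their median was 13.1 TPM ± 0.661. The highest were ID3 (1166 TPM ± 89.7), MSX2 and the mesenchymal factor TWIST1 (320.5 TPM ± 4.86). TFAP2A, an early crest factor, had 10.1 TPM ± 1.16, and TFAP2B was listed at 0 in all 3 libraries.

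Among GATA genes, GATA2 of blood progenitors and GATA4 and GATA6 of heart and endoderm were detected. GATA2 had 11.36, 13.20 and 18.13 TPM from 452, 574 and 788 reads (chromosome 3, 128479422 to 128493201). It was highest in control replicate 3, and its SD of 3.50 TPM was 24.6% of the mean, the widest of the 21 detected factors. GATA6 had 7.70, 7.45 and 7.81 TPM (chromosome 18, 22169589 to 22202528), and GATA4 had 5.43, 4.85 and 5.58 TPM. GATA2 was above GATA6, and GATA6 above GATA4, in every library. GATA3, of T cells and luminal epithelium, had 0.87, 0.79 and 0.53 TPM, and GATA1, of red cells, had 1 read in 1 library. The family summed to 27.9 TPM ± 3.65.

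Of 10 measured GATA cofactors 7 were detected (70%, close to the 66.5% of all genes). The scaffold LDB1 (164.9 TPM ± 2.46), LMO4 (27.3 TPM ± 1.20) and ZFPM2, a partner of GATA4 (13.0 TPM ± 0.818), were the highest. ZFPM1, the partner of GATA1, had 0.59, 0.70 and 1.11 TPM, and the red cell factor KLF1 had 1 read in 1 library. Of 16 endoderm and lung factors 10 were detected (62.5%), and the list median was 1.70 TPM ± 0.257. ID2 (256.2 TPM ± 22.4), FOXF2 (9.77 TPM ± 0.949) and ETV5 (9.08 TPM ± 0.972) led it. NKX2-1, the lung and thyroid factor, had 0.43, 0.29 and 0.57 TPM and FOXA1 had 1.30 TPM ± 0.0379.

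**Figure D3:**
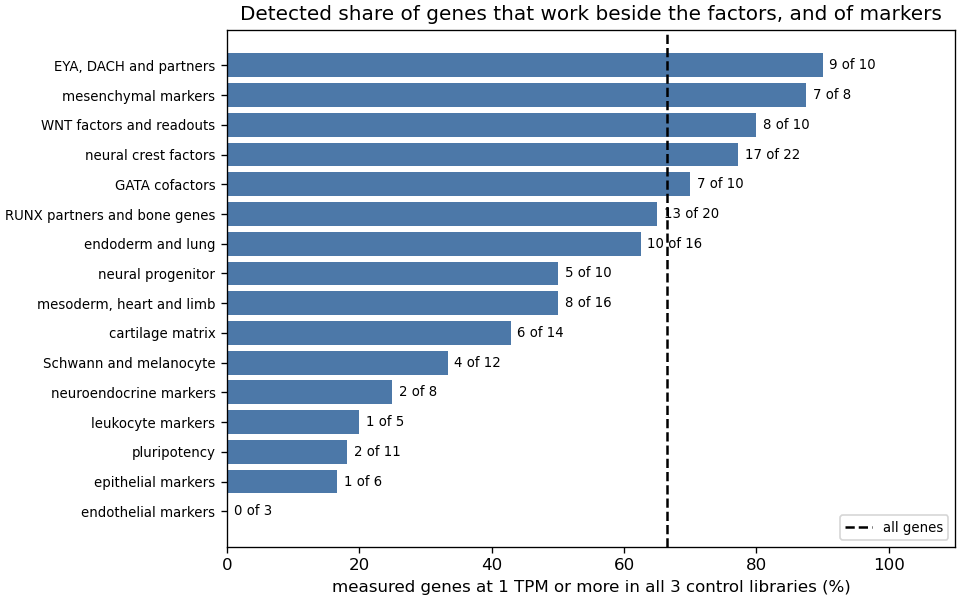
Share of measured genes that had at least 1 TPM in each control library for each list of partner or lineage genes and of cell type markers (bars, with counts), beside the 66.5% of all genes (dashed line). The list of EYA and DACH genes with their partners stands highest at 90%, and the endothelial list at 0 of 3.

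T-box levels came mainly from 1 gene. TBX3, a repressor active in limb, heart and mammary development, had 19.07, 19.10 and 22.66 TPM from 1067, 1162 and 1406 reads (chromosome 12, 114670255 to 114684175). It held 73.2% of the family's summed level of 27.7 TPM ± 1.72. TBX5, its neighbour 261812 bases away and a factor of heart and forelimb, had 1.35, 1.22 and 1.38 TPM. The other neighbouring pair of the same subgroup, TBX2 and TBX4 on chromosome 17, are 42955 bases apart and had 0.05 to 0.07 TPM and 0.16 to 0.34 TPM. TBX2 rested on 2 or 3 reads per library, so of these 4 close relatives TBX3 held 92.7%. SOX7 and GATA4 lie 946423 bases apart on chromosome 8 and stood at 0.490 TPM ± 0.030 and 5.29 TPM ± 0.386.

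The other detected T-box genes were low. TBX20, of heart muscle, had 2.54, 2.41 and 1.94 TPM (chromosome 7, 35202430 to 35254100). TBX19, the pituitary factor of corticotroph cells, had 1.64, 1.40 and 1.23 TPM (chromosome 1, 168280877 to 168314426). TBX6, of paraxial mesoderm, had 1.14, 0.53 and 0.55 TPM and reached 1 TPM in 1 library. TBX1, TBX15 and TBX21 each had between 0.27 and 0.60 TPM. TBR1 of cortical neurons, EOMES of early mesoderm and TBX10 had at most 3 reads in a library. TBX1 overlaps GNB1L by 371 bases, and GNB1L had 1.34 TPM. Of 16 measured mesoderm, heart and limb factors 8 were detected (50%, against 66.5% of all genes), among them IRX3 (54.7 TPM ± 0.960) and PITX1 (42.0 TPM ± 4.44). The cardiac factor NKX2-5 had 20.34, 21.78 and 21.25 TPM, ISL1 2.77 TPM ± 0.136, and MIXL1 was listed at 0 in all 3 libraries. MEF2C (0.163 TPM ± 0.0416) and MESP1 (0.727 TPM ± 0.281) of the same list were not detected, and HAND1 and HAND2 have no value here.

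Across all families SOX4 was the highest factor in mean level, but its range overlapped that of PAX6, and that of PAX6 overlapped SOX12. TBX3 stood apart from its neighbours in this order, being below SOX12 and above GATA2 in every library. GATA2 and RUNX2 overlapped. From PAX9 at 7.91 TPM ± 0.955 down to PAX7 at 4.48 TPM ± 0.146, the range of each of the 9 factors in this order overlapped that of the next, although RUNX3 was above GATA4, and RUNX1 above PAX7, in every library. The 43 factors together held 0.0219% of all TPM.

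A spread over 3 times the counting error was about as common among the factors as among all detected genes. A spread below it was more common among the factors, but both shares depend on how many reads a gene has. Among the 21 detected factors, the SD of RPM was over 3 times the counting error for 6: SOX4 (6.57 times), GATA2 (6.18), SOX6 (5.14), TBX3 (4.03), SOX8 (3.90) and RUNX2 (3.54). That share, 28.6%, was close to the 23.7% of all detected genes, and spread between replicates commonly exceeds counting error. For 10 of the 21 the spread was below the counting error, a larger share than the 21.9% of detected genes. Counting error is larger where reads are few. The 10 had a mean of 52.6 (TBX19) to 346.4 reads (GATA6), and the 6 had 260.2 (SOX8) to 2260 (SOX4). Reads were not matched to those of all detected genes, and their part in these shares was not tested. The 6 with the wide spread did not share a highest or lowest library. GATA2, SOX8 and TBX3 were highest in control replicate 3, where SOX6 was lowest, and SOX4 and RUNX2 were lowest in control replicate 2. Over the 21 factors control replicate 1 was highest for 12 and control replicate 3 lowest for 11, and over all detected genes these shares were 57.7% and 52.8%.

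For RUNX1 and PAX3 the order of libraries depended on the unit. RUNX1 was highest in control replicate 2 in TPM (5.67 TPM), but its RPM values were 19.0, 15.8 and 14.1, highest in control replicate 1. PAX3 ranged from 5.59 to 7.11 TPM and was lowest in control replicate 3, whereas its RPM values were 9.29, 9.28 and 9.65, highest there. The TPM per read of a gene varied by 14.0% (RUNX1) and 13.9% (PAX3) between libraries, against a median of 1.83% over all detected genes and a 90th percentile of 3.70%. Above that percentile lay 7 of the 21 detected factors: these 2, TBX20 (7.92%), GATA4 (6.69%), PAX7 (4.14%), PAX2 (4.09%) and TBX5 (3.85%). RefSeq lists 18 transcripts for RUNX1 and 8 for PAX3, but 53 for PAX6, whose TPM per read varied by 1.22%. The order of highest and lowest library was the same in both units for 14 of the 21 factors and for 76.7% of all detected genes. The part of transcript assignment in this was not tested.

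**Figure D4:**
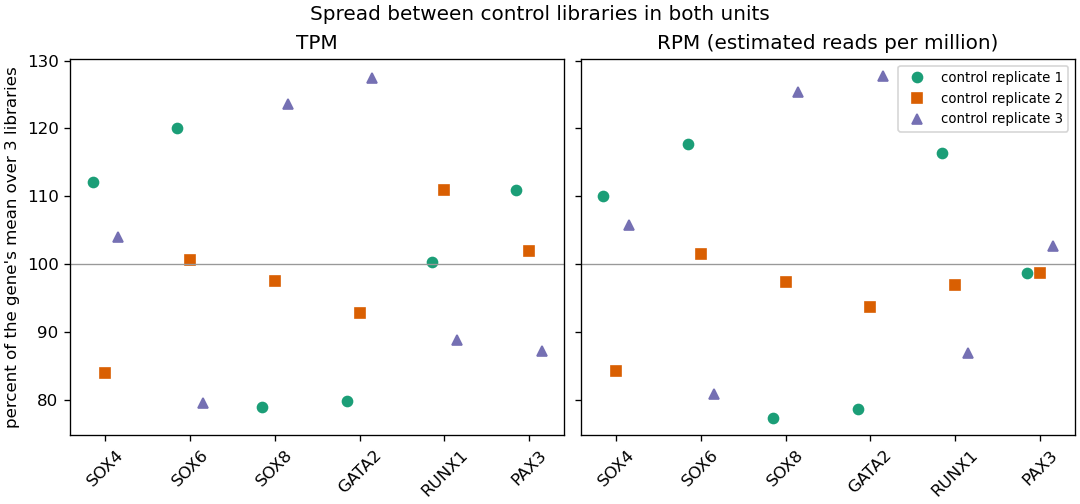
Value in each control library as a percentage of the gene's mean over 3 libraries, in TPM (left) and in RPM (right), for SOX4, SOX6, SOX8, GATA2, RUNX1 and PAX3. SOX4, SOX6, SOX8 and GATA2 keep their order of libraries in both panels, while RUNX1 and PAX3 change it.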

How the data were processed

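The labels describe 6 poly(A) RNA-seq libraries of NCI-H69 cells, prepared strand-specifically and sequenced on a DNBSEQ-T7 instrument. The submitters' processing notes name the tools HISAT2, StringTie and DESeq2 and the build GRCh38, with neither versions nor roles. The authors deposited TPM, FPKM and estimated counts per library, per the file headers. TPM sum to the same total in each library. The labels' names for knockout columns were not found in the header (0 of 3), and 12 columns of values for 3 further libraries match no sample label and were not used.

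Members follow a symbol rule. The members and lists were chosen with earlier results of these data known. Named genes are the detected members, the 3 highest genes of each list (except a few that are not reported here) and markers near 0; other list genes, such as NKX2-5, SP7 and COL2A1, were named after their values were seen. Counting error is 1 over the square root of the mean reads. Its calculation was tested on simulated counts with 200 changed genes and counting error alone in the others. That test does not show whether real replicates follow counting error. The depth was 20941185 to 22477571 estimated reads, and intervals and floors cover counting error only. RefSeq (GRCh38.p14) gave positions, transcripts and promoter windows, the latter for 32 of the 43 members. Alternatives were other minimums, FPKM, scaling without 95 ribosomal protein and MTRNR2L genes, each library left out once and a pseudocount of 0.1. Software was matplotlib 3.10.9, scipy 1.17.1, numpy 2.4.6 and pandas 2.3.3 under Python 3.11.15.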

Additional observations from a re-analysis of the deposited data

How the results depend on the processing

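No paired analysis was possible because the table names no column for the knockout samples. Detected factors numbered 21 at 1 TPM, 24 at 0.5 TPM, 12 at 5 TPM, 28 with at least 10 estimated reads and 18 with FPKM in place of TPM, and 21 to 22 without each library in turn. At 5 TPM, 3 PAX genes, 1 T-box gene and 2 RUNX genes passed, against 6, 4 and 3 at 1 TPM, so RUNX was then no longer detected in full. With at least 10 estimated reads 9 SOX genes counted, against 5, and with FPKM 2 T-box genes, against 4, since FPKM sum to less than TPM. Scaling without ribosomal protein and MTRNR2L genes raised every factor alike, by 1.45 times, to family sums of 125.2 (SOX), 78.8 (PAX), 40.5 (GATA), 33.1 (RUNX) and 40.2 TPM (T-box). The median factor lay -1.85 from the median gene on the log2 scale. It lay at -1.996 under that scaling, at -2.45 with a pseudocount of 0.1 and at -1.37 among detected genes, where the choice of genes sets it. Without each library in turn it ranged from -1.97 to -1.83, and it was negative under each of these alternatives. FPKM scaled to the TPM total gives TPM again apart from rounding (0.993 to 1.002 times over the 21 detected factors), so it is no separate check of the levels. The factors that were not detected rest on at most 43 reads per library, and much of their order is not resolved at this depth. An exception is GATA3 (0.53 to 0.87 TPM), whose range lay above that of SOX7 (0.46 to 0.52 TPM).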
